A study of Mus musculus with 20 samples.

Results

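The liver transcriptome of mice fed a high-fat diet (HFD) with beef was compared with that of mice kept on chow. The comparison held 10 of the 20 liver libraries of the series, 5 per group and 1 per mouse, chosen by the diet that the column names of the count table give. All were female C57BL/6J mice, 8 weeks old at the start and 28 weeks old at dissection. Beef mice received a casein-based HFD for 10 weeks and then, for 10 more weeks, a HFD in which 50% of the protein came from freeze-dried beef (entrecote), while chow mice stayed on a stock chow. The paper states that vitamins were added to the drinking water, without saying for which groups. Chow and the HFD differed in fat, carbohydrate, amount and source of protein, and manufacturer. According to the paper, the HFDs also held more cholesterol than chow. The paper describes the HFD-fed mice as obese and glucose intolerant when the beef diet began. These differences cannot be told apart. The hour of dissection is not given in the sources used here. Chow mice are numbered 1, 2, 5, 7 and 10 and beef mice 31, 32, 35, 39 and 40, and values are listed in that order. The column of mouse 31 names it as beef and its sample label as salmon filet, so counts of genes are also given without it.

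Libraries held 44536900 to 66078351 counted reads in chow mice and 42526234 to 56140621 in beef mice. Ribosomal RNA took 2.22% to 2.93% of the counts in chow mice and 3.27% to 4.38% in beef mice, apart from 12.7% in beef mouse 35. The groups did not overlap in this share (exact permutation test, two-sided, p = 0.00794, the smallest that 252 splits can give), and its part in the differences between genes was not tested. Results are therefore also given without mouse 35. The 14 hepatocyte markers, among them Alb (albumin) and Apoa1, summed to 135700 to 155300 CPM (normalised read counts, scaled to a library's size) in chow mice and to 133000 to 154800 in beef mice, and edgeR called none of them (1 at an unadjusted p under 0.05, 1 by DESeq2).

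The liver takes up dietary fat and cholesterol, exports them in lipoproteins, and turns cholesterol into bile acids. Its sterol synthesis is held back when sterols are plentiful, through the transcription factor SREBP-2, while SREBP-1c (from Srebf1) drives fatty acid synthesis. Cytochrome P450, glutathione and conjugating enzymes under the receptors CAR, PXR and AhR clear drugs and plant compounds, and an internal clock gives many liver genes a daily rhythm.

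Of 13378 protein coding genes tested, 397 (2.97%) differed between beef and chow at an adjusted p under 0.05 in edgeR's quasi-likelihood test with Benjamini-Hochberg adjustment. Of these, 194 (1.45% of those tested) were higher in beef mice and 203 (1.52%) lower, and 128 and 162 of them differed by more than 1.5-fold. The 5 beef values lay wholly above or below the 5 chow values for 342 of the 397 genes, and for 861 (6.44%) of all coding genes tested. The groups were apart on the first principal component, which held 38.9% of the variance of the 500 most variable genes, at -24.8 to -8.39 in chow mice and 10.5 to 19.0 in beef mice. All 397 genes kept their direction when any 1 library was left out, and 130 of them (56 higher, 74 lower) passed the threshold in each of the 10 such fits. The count fell to 159 without chow mouse 2, 173 without chow mouse 7, 189 without beef mouse 39 and 195 without beef mouse 40. It was 341 without mouse 31, 363 without mouse 35 and 239 without both. Below, a call is said to have held when it passed in all 10 fits, and otherwise the number of fits and the highest adjusted p are given. Counts of called genes in the lists below are to be read beside the 2.97% of all coding genes that were called.

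**Figure D1:**
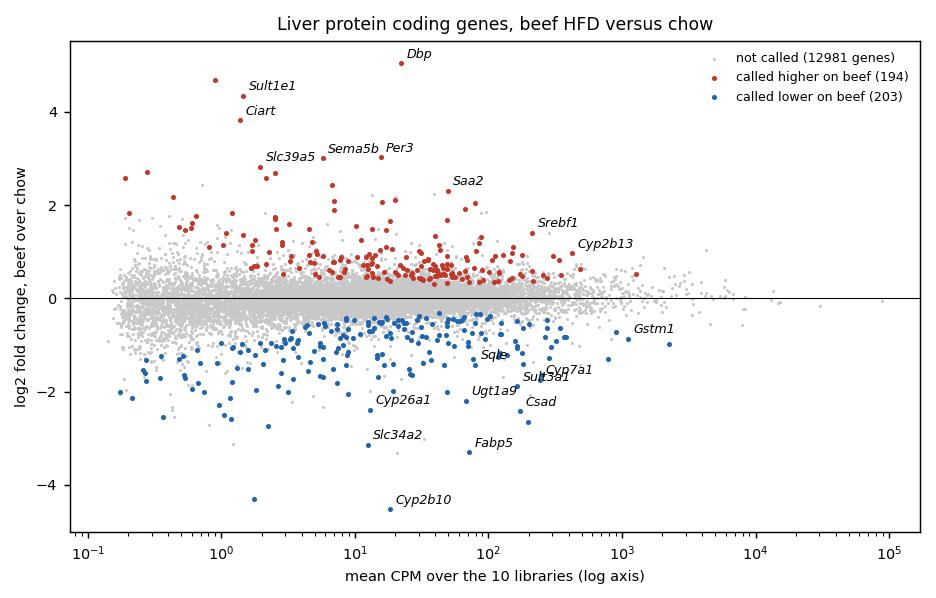
Each point is 1 protein coding gene, with its mean CPM over the 10 libraries (log axis) across and the log2 fold change of beef over chow upwards. The 194 genes called higher (red) and the 203 called lower (blue) spread over the whole range of levels, with Dbp highest and Cyp2b10 lowest among them.

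Cyp2b10, a cytochrome P450 that the receptor CAR induces, was the gene with the largest fall. It lies at chr7:25897620-25926624 (plus strand, GRCm38). Its level was 68.5, 33.1, 18.7, 31.9 and 23.4 CPM in chow mice and 2.04, 1.84, 1.37, 1.504 and 0.840 CPM in beef mice. Every chow value lay above every beef value, and the log2 fold change was -4.52 ± 0.37 (SE, n = 5 per group; adjusted p = 0.000134). This call held, and without both mice 31 and 35 the adjusted p was 0.00283. Cyp2b13, its neighbour at chr7:26061497-26096197 and a gene with more expression in female than in male liver, went the other way. It read 436, 263, 284, 150.4 and 296 CPM on chow and 561, 653, 503, 523 and 559 CPM on beef. The lowest beef value lay above the highest chow value (log2 fold change 0.97 ± 0.22, adjusted p = 0.0335), but the call passed in 3 of 10 fits (adjusted p = 0.0885 without chow mouse 2). The longest transcripts of the pair share a stretch of 336 bases at 96.1% identity, so a small part of their reads could be assigned to either.

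Of 25 listed CAR and PXR targets, 8 were called lower and 2 higher (Cyp2b13 and Cyp2a5), with a median log2 fold change of -0.28 against -0.00996 over all coding genes. The share called over all coding genes tested was 2.97%. Gstm3, a glutathione S-transferase, stood at 78.9, 120.1, 44.6, 96.5 and 50.3 CPM on chow and 17.0, 23.9, 19.4, 22.4 and 14.5 CPM on beef. The groups were apart, and the fall of 2.01 on the log2 scale (SE 0.26, adjusted p = 0.00289) held. Ces2a, a carboxylesterase, and Cyp2c29, a P450, fell by 1.07 and 0.73 on the log2 scale, and both calls held. Cyp2c55, with 1.67 to 9.48 CPM on chow and 0.860 to 1.79 on beef, overlapped between the groups and passed in 3 of 10 fits (adjusted p = 0.031, and 0.0789 without chow mouse 2). Gsta2 fell by 1.98 (adjusted p = 0.0335) and passed in 5 of 10 fits, with 0.0803 without chow mouse 7, and 3 near-identical copies of it, Gsta1, Gm10639 and Gm3776, make its count uncertain. The transcripts of the receptors themselves were not called: Nr1i3 (CAR) had a log2 fold change of 0.22 ± 0.19 and Nr1i2 (PXR) of -0.14 ± 0.14.

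Among all 71 P450 genes tested, 14 were called lower and 2 higher, where 2.97% of all coding genes were called, and 7 of these P450 calls held. Without mouse 31 the count of calls was 12, and without both mice 31 and 35 it was 10. Cyp1a2, the P450 of caffeine metabolism and a target of AhR, read 379.8, 408, 401, 468 and 321 CPM on chow and 129.7, 131, 336, 183 and 185 on beef. Mouse 35 was the one beef mouse within the chow range, and the fall of 1.04 (SE 0.24) had an adjusted p of 0.0361. It passed in 2 of 10 fits, with 0.0943 without chow mouse 7 and 0.00198 without mouse 35. The transcript of AhR itself (Ahr) was lower by a small step, at 63.0 to 75.9 CPM on chow and 42.6 to 52.1 on beef (log2 fold change -0.48 ± 0.09, adjusted p = 0.0157), and this call held. Cyp26a1, which degrades retinoic acid, read 20.8, 11.6, 47.3, 19.0 and 10.8 CPM on chow and 4.45, 3.63, 2.63, 4.81 and 5.40 CPM on beef. The groups were apart (log2 fold change -2.39 ± 0.38, adjusted p = 0.00828), and Rdh11, a retinal reductase, had a log2 fold change of -1.25 ± 0.22. Both calls held, and they were the 2 called of 18 retinoid genes tested.

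Conjugating enzymes showed the same mixture, with 6 of 39 listed genes called lower and 2 higher. The lists share called genes, so their counts are not separate results. Ces2a is in both the CAR and PXR list and this one. The P450s of the CAR and PXR list are counted again among all P450 genes. Gstm3 and Gsta2 return in the glutathione list below. Ugt1a9, a glucuronosyltransferase, read 138, 115, 90.7, 111 and 103 CPM on chow and 29.8, 28.6, 17.4, 33.1 and 12.3 CPM on beef, a fall of 2.20 on the log2 scale (SE 0.24, adjusted p = 0.000809) that held. Ugt1a6b, from the same gene cluster on chromosome 1, was higher at 47.2 to 66.5 CPM on beef against 27.7 to 40.7 on chow (log2 fold change 0.70 ± 0.14, adjusted p = 0.0211, passed in 8 of 10 fits, 0.0565 without chow mouse 7). These genes share their last exons, so reads there cannot be told apart between them. Sult3a1, a sulfotransferase, fell by 1.88 (SE 0.36), which held. Sult1e1, the estrogen sulfotransferase, was nearly silent on chow with 2 to 19 reads per library, and read 0.597, 10.9, 0.651, 0.394 and 1.42 CPM on beef. All beef values lay above the chow maximum of 0.330 CPM, with mouse 32 far above the rest. Its log2 fold change of 4.35 ± 1.03 passed in 4 of 10 fits (adjusted p = 0.0429, 0.114 without chow mouse 7).

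Of 31 listed genes of glutathione and the NRF2 response, 27 were lower and 6 were called, all lower (median log2 fold change -0.29). Gstm1, an abundant liver glutathione S-transferase, read 1568, 1514, 1257, 1621 and 1199 CPM on chow and 786, 903, 619, 901 and 713 CPM on beef. The fall of 0.87 (SE 0.14, adjusted p = 0.00753) held. Csad, whose product makes the precursor of taurine, the amino acid to which mouse bile acids are joined, read 240.1, 410.2, 359, 220.2 and 213 CPM on chow. On beef it read 77.9, 29.5, 50.4, 59.1 and 52.6 CPM, so that the highest beef value was far below the lowest chow value (log2 fold change -2.42 ± 0.26, adjusted p = 0.000692), and this call held. Csad was the only called gene of 20 tested in the list of methyl and sulfur metabolism, where 2.97% of all coding genes were called.

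**Figure D2:**
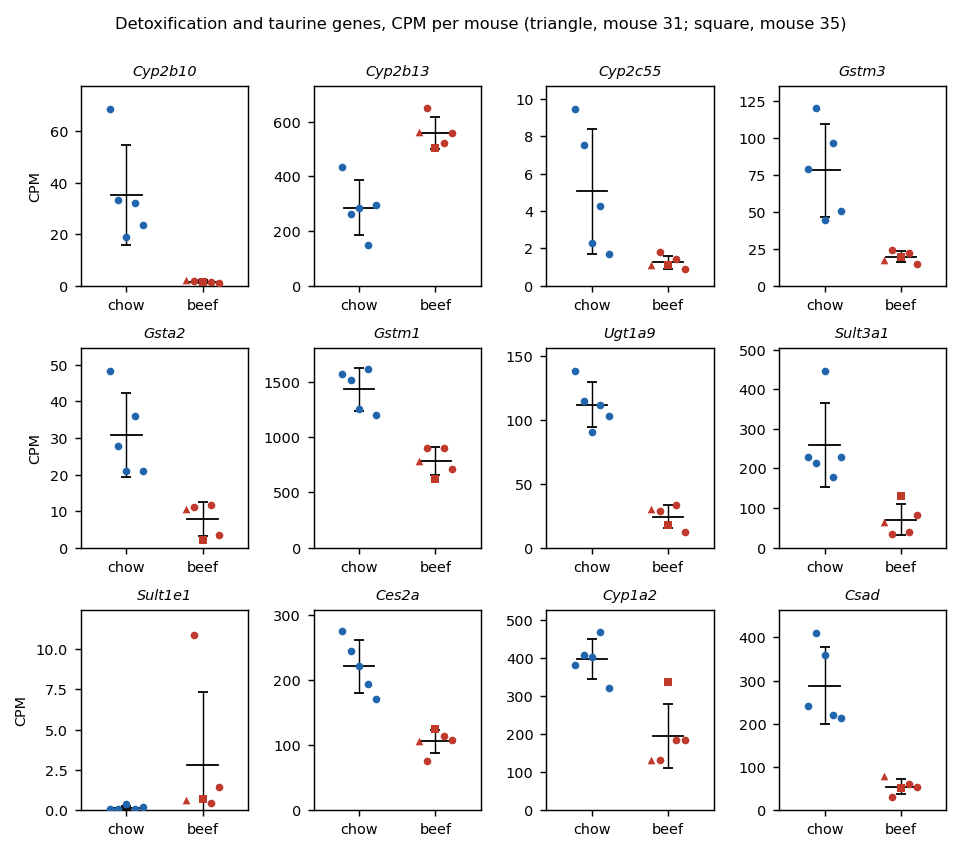
CPM of 12 genes of detoxification and taurine synthesis, with 1 point per mouse, the mean as a bar and its SD as whiskers (n = 5 per group), on axes from 0. Beef values lie below all chow values for Cyp2b10, Gstm3, Gstm1, Ugt1a9, Sult3a1, Ces2a, Gsta2 and Csad and above all of them for Cyp2b13 and Sult1e1, while Cyp1a2 of mouse 35 (square) and Cyp2c55 overlap with chow.

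Of 21 listed genes of cholesterol synthesis, 6 were called, all lower in beef mice, and 15 did not pass. A negative log2 fold change was found for 20 of them, with a median of -0.75, but the summed level of the list overlapped between the diets, at 3471 to 6951 CPM on chow and 2712 to 4208 CPM on beef. The count of calls was 7 without mouse 31, 4 without mouse 35 and 3 without both. Sqle, squalene epoxidase, read 90.6, 132, 174, 109.5 and 72.5 CPM on chow and 61.2, 49.5, 51.5, 26.6 and 27.2 CPM on beef. The groups did not overlap (log2 fold change -1.42 ± 0.28, adjusted p = 0.0211), and the call passed in 9 of 10 fits (0.0535 without chow mouse 2). Pmvk, phosphomevalonate kinase, read 88.2, 149, 104, 133 and 70.6 CPM on chow and a narrow 45.5, 41.7, 47.7, 41.0 and 43.9 CPM on beef. Its log2 fold change of -1.31 ± 0.18 (adjusted p = 0.00369) was the one call of the list that held. Cyp51, Fdft1, Nsdhl and Acat2, which act between acetyl-CoA and the late sterols, fell by 1.18, 0.92, 0.88 and 0.67. These passed in 6, 3, 4 and 2 of 10 fits, with adjusted p-values up to 0.0591 (without chow mouse 7), 0.0997 (beef mouse 40), 0.0843 (chow mouse 2) and 0.118 (chow mouse 2). Beef and chow values overlapped for Fdft1, Nsdhl and Acat2 but not for Cyp51. Reads of Fdft1 and of a pseudogene, Gm6781, and reads of Acat2 and Acat3 could be confused, as these copies are 97.4% and 97.7% identical over 1249 and 1477 bases.

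Hmgcs1, an early step of the pathway, read 698, 1223, 1686, 1125 and 635 CPM on chow and 927, 707, 549, 423 and 345 CPM on beef. The groups overlapped, and it gave -0.86 ± 0.31 on the log2 scale (adjusted p = 0.153), and the transcripts of the regulators Srebf2 and Scap gave -0.15 and 0.03. Among the 21 listed genes, 16 were matched to RefSeq promoters (19 windows from 250 bases before to 50 after a start site, build GRCm38.p6). The sterol regulatory element TCACNCCAC, searched on both strands, was in 1 of these 19 windows (5.26%) and in 1.24% of all 32851 promoters. It is shown in capitals in the excerpt of chr13:119690179-119690268 (plus strand), 137 bases before the start of Hmgcs1, because that gene is a textbook target of SREBP-2.
Hmgcs1: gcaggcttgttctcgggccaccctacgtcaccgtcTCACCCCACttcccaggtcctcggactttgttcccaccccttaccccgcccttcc

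Of 16 listed genes of bile acid synthesis, 2 were called, both lower, while 7 had positive and 9 negative values (median -0.17). Over all coding genes, 2.97% were called. Of 26 genes of sterol control and uptake, 2 were called, both higher. These were Abcg8 and Abcg5, the paired pump that sends sterols into bile, which read 71.2 to 133 CPM and 57.3 to 104 CPM on beef against 32.9 to 68.9 and 35.1 to 63.7 on chow. Their log2 fold changes were 1.02 ± 0.21 and 0.82 ± 0.19 (adjusted p = 0.0243 and 0.0416), and they passed in 6 and 2 of 10 fits, with 0.0722 without chow mouse 7 and 0.111 without chow mouse 2. The pair are neighbours on opposite strands and overlap, and whether reads were counted by strand is not given in the sources used here. Cyp7a1, the rate-limiting enzyme of bile acid synthesis (chr4:6265612-6275633, minus strand), read 574, 455, 242, 409 and 189 CPM on chow and 93.4, 167, 106, 104 and 87.2 CPM on beef. The groups did not overlap, although the chow mice spread widely (log2 fold change -1.74 ± 0.29, adjusted p = 0.00944). Cyp27a1, the first enzyme of the alternative route, fell by 0.64 (SE 0.11, adjusted p = 0.00976), from 302 to 371 CPM on chow to 185 to 248.8 on beef. Both calls held with 1 library left out, and without both mice 31 and 35 the adjusted p of Cyp7a1 was 0.0585. Cyp8b1, which sets the share of cholic acid, had a log2 fold change of -0.37 ± 0.29 and was not called. Abcc4, a bile acid exporter of the sinusoidal side, fell by 1.03 (SE 0.18), which held.

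**Figure D3:**
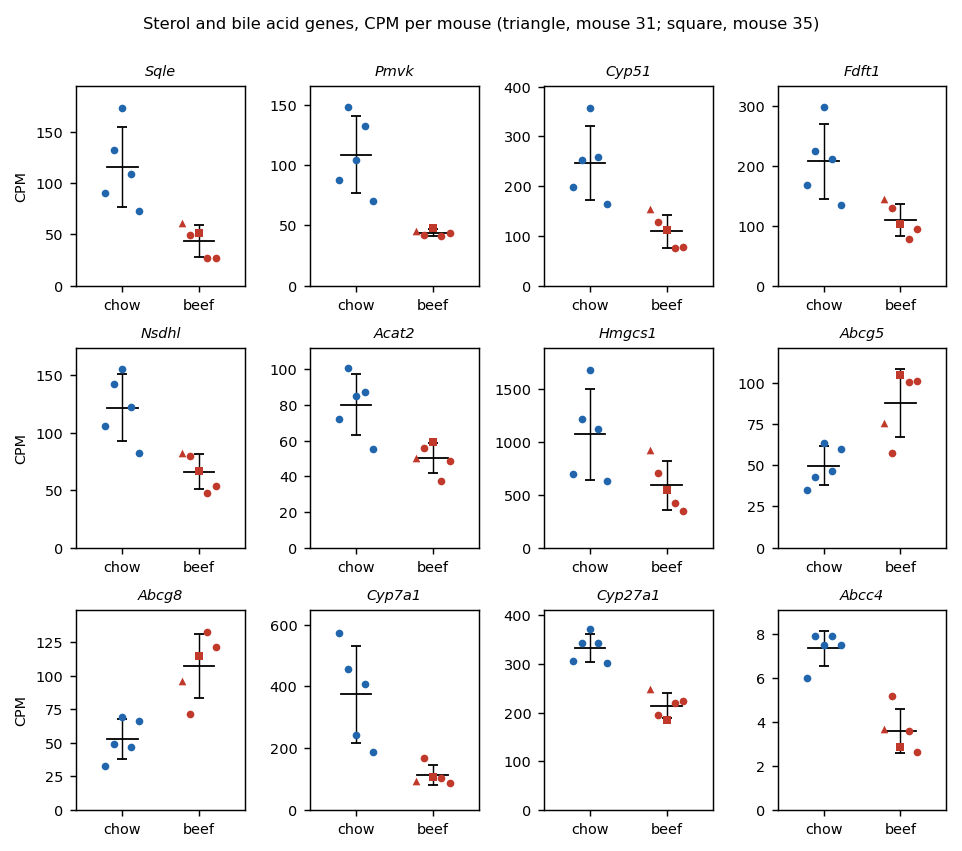
CPM of 12 genes of sterol synthesis, sterol export and bile acid synthesis and transport, with 1 point per mouse, the mean as a bar and its SD as whiskers (n = 5 per group), on axes from 0. Sqle, Pmvk, Cyp51, Cyp7a1, Cyp27a1 and Abcc4 lie lower on beef without overlap and Abcg8 higher, whereas Fdft1, Nsdhl, Acat2, Hmgcs1 and Abcg5 overlap between the diets.

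In fatty acid metabolism, Srebf1 was higher while the listed genes of fatty acid synthesis had a median of -0.22. Srebf1 (chr11:60199089-60222581, minus strand) read 104, 133, 134, 114 and 96.6 CPM on chow and 202, 202, 442, 347 and 348 CPM on beef. The groups were apart, with mice 35, 39 and 40 highest (log2 fold change 1.41 ± 0.21, adjusted p = 0.00629), and the call held. Acss2, which makes acetyl-CoA from acetate, fell by 1.29 (SE 0.29, adjusted p = 0.034) and passed in 3 of 10 fits (0.0879 without chow mouse 7). These were the 2 called of 20. Fabp5, a fatty acid binding protein, read 78.9, 212, 94.5, 181 and 82.5 CPM on chow and 10.4, 16.8, 14.7, 8.19 and 15.7 CPM on beef, a fall of 3.30 on the log2 scale (SE 0.32, adjusted p = 0.00032) that held. Fabp2, better known from the intestine, rose from 32.1 to 68.5 CPM on chow to 90.1 to 143 on beef (log2 fold change 1.19 ± 0.19, adjusted p = 0.00831), which held. Cd36, the fatty acid translocase, was also higher (log2 fold change 0.96 ± 0.23, adjusted p = 0.0407), passing in 2 of 10 fits with 0.109 without chow mouse 7. Ppara, the receptor that switches on fat oxidation, read 67.4, 85.3, 129, 63.0 and 138 CPM on chow and 186, 165, 249.7, 201 and 230.3 CPM on beef (2.14-fold higher, with an SE of 0.22 on the log2 scale, adjusted p = 0.0226, passed in 6 of 10 fits, 0.0659 without chow mouse 2). It was the only called gene of 34 in its list, whose median was 0.21, and Cpt1a, the gate to mitochondrial oxidation, gave 0.51 ± 0.26 (adjusted p = 0.317). That count is near the 2.97% called over all coding genes. None of 22 lipid droplet and triglyceride genes was called by edgeR, and DESeq2 called 2. Positive values were found for 18, and 6 had an unadjusted p under 0.05, against 2447 of all 13378 coding genes tested.

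Circadian clock genes included the largest rise of all. Of 21 listed genes, 8 were called, all higher, where 2.97% of all coding genes were called, and the median log2 fold change was 0.87. Dbp, a transcription factor whose transcript swings widely over the day, read 0.735, 0.777, 2.25, 0.937 and 1.81 CPM on chow. In beef mice it read 1.158, 11.1, 43.1, 45.8 and 114 CPM, so that mouse 31 lay within the chow range and the other 4 rose far above it. The log2 fold change was 5.04 ± 0.92 (adjusted p = 0.0152), and the call held. A stretch of 541 bases of Dbp is 100% identical to Sphk2, so some reads could be assigned to either. Per3 was likewise lowest in mouse 31 and highest in mouse 40 among beef mice, with 2.26 to 4.67 CPM on chow and 2.64, 10.9, 30.3, 27.4 and 67.4 CPM on beef (3.03 ± 0.64, adjusted p = 0.0271, passed in 5 of 10 fits, 0.0788 without chow mouse 7). Ciart, a repressor of the clock, was at 0.0426 to 0.278 CPM on chow and 0.199, 0.608, 1.346, 1.57 and 9.22 CPM on beef (3.82 ± 0.91, adjusted p = 0.0431, passed in 2 of 10 fits, 0.113 without chow mouse 7). Tef and Hlf, relatives of Dbp, had log2 fold changes of 2.04 ± 0.39 and 0.54 ± 0.12, and the repressors Nr1d2, Per2 and Cry2 of 1.67 ± 0.35, 1.46 ± 0.34 and 0.97 ± 0.20. These 5 passed in 8, 3, 5, 2 and 5 of 10 fits, with adjusted p-values up to 0.0548, 0.0901, 0.0723, 0.113 and 0.0755, for Hlf without chow mouse 2 and for the others without chow mouse 7.

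Genes of the activating arm had negative values. Arntl (BMAL1) read 39.6, 40.6, 29.6, 41.6 and 33.8 CPM on chow and 35.8, 21.8, 8.88, 8.29 and 4.70 CPM on beef. Mouse 31 again lay within the chow range and mouse 40 lay farthest from it (log2 fold change -1.22 ± 0.44, adjusted p = 0.157, 0.0275 without mouse 31). Npas2 and Clock had log2 fold changes of -1.45 and -0.41 and were not called. Without mouse 31, 14 of the 21 genes were called, and without mouse 35 5 were, so the count depended on which beef mice were included. Among beef mice, Hmgcs1 fell in the same order of mice as Arntl, and Srebf1 was lowest in mice 31 and 32. Cyp7a1 and Ppara did not follow that order. How far the place of each mouse in its daily cycle moved with the values of clock genes, or of any other gene described here, was not tested.

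**Figure D4:**
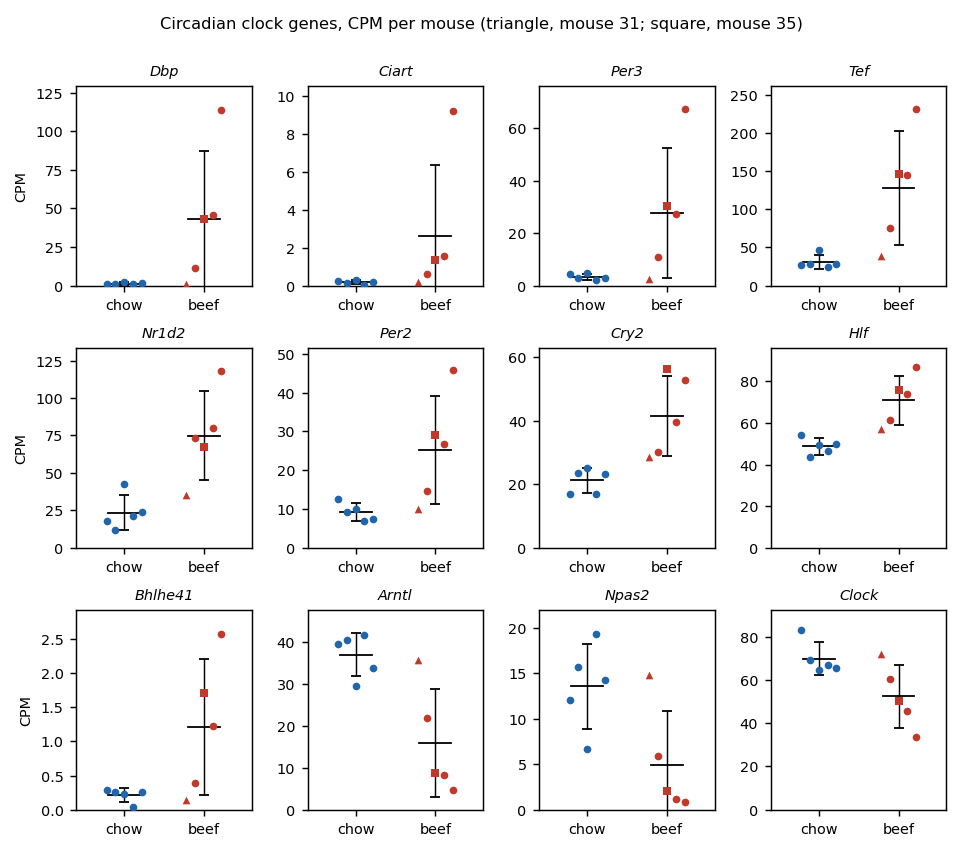
CPM of 12 clock genes, with 1 point per mouse, the mean as a bar and its SD as whiskers (n = 5 per group), on axes from 0. Beef mouse 31 (triangle) sits with the chow mice for Dbp, Ciart, Per3 and Arntl, and mouse 40 is the farthest from chow for these 4 genes.

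Promoter sequences were read for the clock list, called or not, because 8 of its members were called in 1 direction. CLOCK and BMAL1 bind the E-box CACGTG, which reads the same on both strands, and DBP, TEF and HLF bind the D-box TTATGTAA, searched on both strands. Of the 21 genes, 17 were matched to 22 RefSeq promoter windows of the length given above. An E-box was in 6 of these 22 windows (27.3%) and in 7.15% of all promoters, and a D-box in 1 (4.55%) and in 0.938% of all. Of the 7 called genes that were matched, 2 held an E-box (Ciart and Tef) and 1 a D-box (Per3), and the other E-boxes were in Bhlhe41, Cry1 and Per1, which were not called. Ciart held 3 E-boxes, at 116, 58 and 44 bases before its start (chr3:95882240-95882379, minus strand), and Tef 1 in each of its 2 promoters (chr15:81802511-81802600 and chr15:81811241-81811330, plus strand). Per3 held 2 D-boxes, at 205 and 158 bases before its start (chr4:151044781-151044905, minus strand). The capitals mark these motifs. The window of Dbp held neither set of letters, which says nothing of sites elsewhere.
Ciart: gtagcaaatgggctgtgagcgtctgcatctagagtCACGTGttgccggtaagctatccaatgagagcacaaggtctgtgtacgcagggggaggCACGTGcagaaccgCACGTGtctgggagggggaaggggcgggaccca
Tef, upstream promoter: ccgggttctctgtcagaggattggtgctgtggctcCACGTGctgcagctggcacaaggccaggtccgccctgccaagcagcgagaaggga
Tef, downstream promoter: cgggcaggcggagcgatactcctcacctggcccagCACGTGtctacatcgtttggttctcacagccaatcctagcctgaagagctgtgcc
Per3: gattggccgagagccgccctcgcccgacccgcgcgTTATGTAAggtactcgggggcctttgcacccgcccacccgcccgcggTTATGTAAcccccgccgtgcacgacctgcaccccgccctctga

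Several of the largest changes lay outside these pathways. Slc34a2, a phosphate transporter, read 22.6, 21.4, 17.0, 25.2 and 26.2 CPM on chow and 4.54, 2.65, 1.4, 2.27 and 1.84 CPM on beef (log2 fold change -3.14 ± 0.27, adjusted p = 0.000168). Sema5b, a semaphorin guidance protein, read 0.915, 0.612, 1.56, 0.724 and 2.53 CPM on chow and 9.63, 8.90, 12.6, 8.56 and 11.4 CPM on beef (3.01 ± 0.34, adjusted p = 0.00091). The groups were far apart for both. Kcnk10, a potassium channel, and Adora1, an adenosine receptor, had log2 fold changes of 2.69 ± 0.24 and 2.10 ± 0.19, and Slc39a5, a zinc transporter, of 2.83 ± 0.46 with mouse 35 highest at 7.95 CPM. Vtcn1, an inhibitor of T cells, fell by 2.73 (SE 0.39) and Smad9, a mediator of BMP signals, by 2.04 (SE 0.33). All of these calls held. A stretch of 844 bases of Adora1 is 99.9% identical to Mybph, so some of its reads could be assigned to either. Gm3839, with a fall of 4.29, is 99.1% identical to Gapdh over 1232 bases, so its reads cannot be told from those of Gapdh. Chac1, which breaks down glutathione and is a target of ATF4, had a log2 fold change of 2.57 ± 0.51 and passed in 7 of 10 fits (0.058 without chow mouse 2), while Atf4 itself fell by 0.50 (SE 0.12, adjusted p = 0.0404, passed in 2 of 10 fits, 0.111 without chow mouse 7).

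Hormone and insulin related genes changed in both directions, with 1 called higher and 3 lower of 27, where 2.97% of all coding genes were called. Socs2, a feedback inhibitor of growth hormone signals, read 46.5, 38.6, 44.0, 56.7 and 46.6 CPM on chow and 14.6, 10.6, 26.9, 23.0 and 13.9 CPM on beef (log2 fold change -1.39 ± 0.23, adjusted p = 0.00856), and the call held. Igfbp2 and Ppp1r3c, a binding protein of insulin-like growth factors and a glycogen targeting subunit, fell by 1.21 and 1.18, and Slc2a2, the glucose transporter GLUT2, rose by 0.50. They passed in 3, 7 and 2 of 10 fits, with adjusted p-values up to 0.104 (without chow mouse 7), 0.0558 (beef mouse 40) and 0.096 (chow mouse 2). Tsku, a secreted liver protein, fell by 1.66 (SE 0.32, adjusted p = 0.0189), which held. Of 23 genes with female-biased expression, 5 were called lower and 2 higher, and of 20 with male-biased expression 2 were called lower.

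Of the serum amyloid genes, Saa1, Saa2 and Saa4 were called higher. Saa2 read 10.7, 14.7, 12.2, 11.0 and 34.6 CPM on chow and 23.6, 96.2, 81.4, 155 and 55.9 CPM on beef, with chow mouse 10 above beef mouse 31 (log2 fold change 2.30 ± 0.46, adjusted p = 0.0228). Saa1 followed the same pattern (1.91 ± 0.43, adjusted p = 0.0361), and the pair are 96.7% identical over 2448 bases, so that reads may be split between them. These calls passed in 6 and 3 of 10 fits, with 0.0688 and 0.097 without chow mouse 7. Saa4, a constitutive member, read 199 to 315 CPM on chow and 351 to 547 on beef (0.83 ± 0.15, adjusted p = 0.0149), which held. With Serpina3m, these were the 4 called of 27 acute phase genes, whose median was 0.37, where 2.97% of all coding genes were called.

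Among lymphocyte markers, 3 of B and plasma cells and none of T and NK cells passed the test, against 397 of 13378 coding genes (2.97%). In bulk tissue, fewer cells of a type and less RNA per cell cannot be told apart. All 17 tested markers of B and plasma cells had negative values (median log2 fold change -1.51), and 15 had an unadjusted p under 0.05. Over all 13378 coding genes tested, 2447 had one. The 3 called included Cxcr5, a B cell chemokine receptor, and the immunoglobulin gene Ighd. Ighd read 2.87, 3.80, 2.29, 5.47 and 1.58 CPM on chow and 0.977, 1.59, 1.216, 1.09 and 0.740 CPM on beef, with chow mouse 10 just below beef mouse 32 (-1.50 ± 0.32, adjusted p = 0.0269). Ighd and Cxcr5 passed in 5 and 2 of 10 fits, with adjusted p-values up to 0.0711 without chow mouse 2 and 0.118 without chow mouse 7, and no gene of the list was called without mouse 31. The summed level of the list was 46.8, 451, 46.7, 81.2 and 52.9 CPM on chow and 19.8, 34.1, 32.8, 35.2 and 34.3 CPM on beef. Chow mouse 2 stood apart, mainly through Ighm at 283 CPM. Of 29 T and NK cell markers 25 had negative values, with a median of -0.62 and sums of 18.1 to 27.1 CPM on chow and 11.2 to 20.3 on beef. edgeR called none of them, 14 had an unadjusted p under 0.05 and DESeq2 called 6, and Cd3e gave -0.48 ± 0.24 on the log2 scale (adjusted p = 0.311).

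Other cell types gave at most 1 call per list, where 2.97% of all coding genes tested were called. Among 25 Kupffer cell and macrophage markers, Cd9 was called, falling by 1.42 (SE 0.22, adjusted p = 0.00679), which held, whereas Adgre1 and Clec4f had log2 fold changes of -0.27 and -0.10. The sums of that list overlapped, at 392.8 to 852.5 CPM on chow and 402.1 to 688.4 on beef. Mmp9 was called among 4 neutrophil genes tested, Clec4g among 21 endothelial genes, Alas2 among 7 of red blood cells and Cela1 as the only one tested of 9 exocrine pancreas genes. None of these 4 held. They passed in 1, 0, 3 and 4 of 10 fits, with adjusted p-values up to 0.109, 0.124, 0.103 and 0.0843, the first without chow mouse 7 and the others without chow mouse 2. The acinar gene Prss2 read 0.0176 CPM in chow mouse 10 and 0 in the other libraries. No gene was called by edgeR among 24 stellate and matrix, 10 cholangiocyte and 15 MHC class II and dendritic genes. It also called none among 26 cell cycle and 23 immediate early and heat shock genes. In these lists, in that order, DESeq2 called 1, 0, 0, 1 and 3, and 4, 1, 1, 2 and 10 had an unadjusted p under 0.05. An unadjusted p under 0.05 was found for 2447 of all 13378 coding genes tested.

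The lists below gave at most 3 calls each, where 2.97% of all coding genes tested were called. Some of them, such as sterol control and AhR, are also described above. Interferon genes (26 tested, Ifi27 called higher), amino acid and urea genes (39, Slc38a4 higher and Ddc lower), sterol control and uptake (26, Abcg5 and Abcg8), bile acid transport (17, Nr5a2 higher and Abcc4 lower) and iron genes (19, Steap4 and Hjv higher) had medians of 0.14, 0.13, 0.19, 0.03 and 0.00. Among 7 AhR genes tested, Ahr and Cyp1a2 were called, and among 24 genes of the unfolded protein response Chac1 and Atf4. The 22 hepatokines and secreted proteins had 3 calls, all lower. Of 3 tested fat cell genes none was called by edgeR or DESeq2, and 0 had an unadjusted p under 0.05. Of 25 genes of oxidative phosphorylation, mt-Atp6 alone was called, falling by 2.66 (SE 0.52), and a copy of it, Gm10925, is 100% identical over 678 bases, so its reads cannot be placed.

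**Figure D5:**
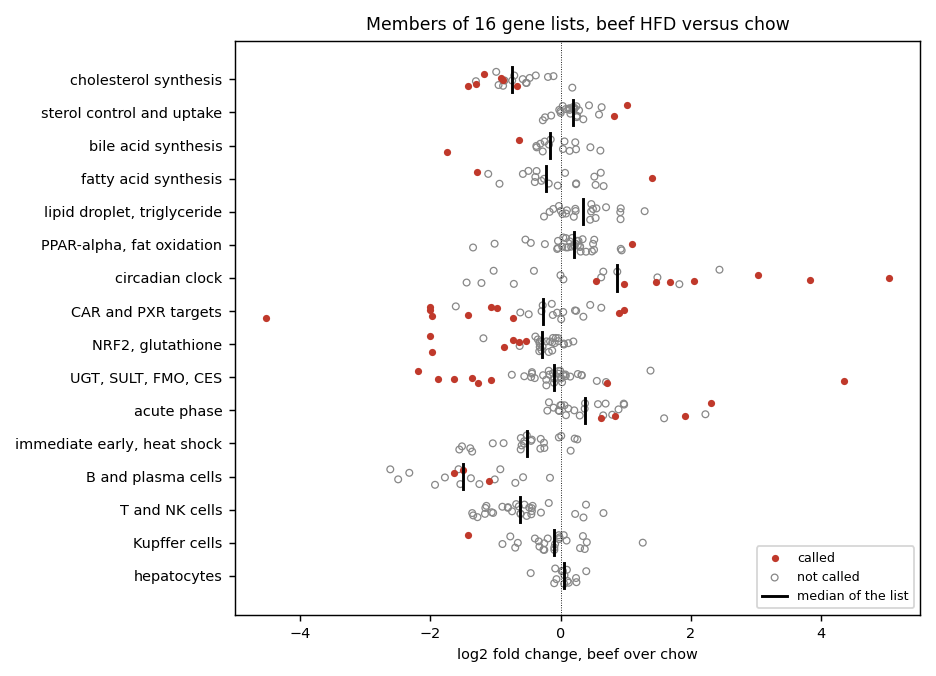
The log2 fold change of beef over chow (across) for every tested member of 16 gene lists, with called members in red, the others as open circles and the median of each list as a black bar. Cholesterol synthesis and B cell members lie almost wholly below 0, clock members spread from -1.45 to 5.04, and hepatocyte markers lie between -0.46 and 0.39.

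Whether the beef diet differed from the fish-based HFDs was tested in the 15 HFD libraries, without chow, as beef minus the mean of fishmeal and salmon filet. No gene of 13562 tested was called (0%), the lowest adjusted p was 0.9998, and 366 genes (2.70%) had an unadjusted p under 0.05. DESeq2 also called none. Fishmeal and salmon filet were averaged here, so a gene that differed from beef in only 1 of them could be missed. The paper compared beef with fishmeal and with salmon filet separately by DESeq2, and reported genes that differed in each case. Of the 397 genes called against chow, 393 were tested, and 37 (9.42%) had an unadjusted p under 0.05. Their median absolute log2 fold change was 0.148 against the fish-based diets and 0.880 against chow. The 397 genes were chosen for their difference from chow, so a larger value against chow was in part fixed by that choice. The same beef libraries also enter both comparisons, so neither the medians nor the share of 9.42% can decide whether the diets acted alike. Cyp2b10, for example, had a mean of 2.17 CPM on fishmeal and 2.27 on salmon filet (beef minus fish -0.54 ± 0.49 on the log2 scale), and Csad of 43.2 and 44.4 CPM (0.30 ± 0.41). Sqle had means of 9.05 CPM on fishmeal and 56.3 on salmon filet, and its difference of 0.94 ± 0.26 had an unadjusted p of 0.00248. A p that misses the threshold does not show that the diets acted alike.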

How the data were processed

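RNA of each liver was made into a strand-specific mRNA library and sequenced as 1 library per mouse. The authors trimmed the reads, mapped them to the mouse genome with HISAT2 (1.2.1, per the submitters' processing notes) and made the deposited counts per Ensembl gene with featureCounts (1.4.6-p1). The settings for strand and for reads that fit several genes are not given in the sources used here. The count table is unnormalised and was the only table tested. The authors also deposited TPM values (counts scaled by gene length and library size). For 100% of 11664 genes these equalled the counts divided by 1 length for each gene (coefficient of variation under 1%), and they served only as this check of the mouse numbers.

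Groups followed the column names. The members and the gene lists were chosen with earlier results of these data known, and the P450 list is every gene named Cyp. edgeR 4.0 in R 4.3 fitted the 10 libraries alone, with TMM factors, filterByExpr (minimum count 10) and the two-sided quasi-likelihood F-test. The p-values were adjusted by Benjamini-Hochberg across the 16339 genes that passed. A prior count of 2 entered only the log2 CPM behind the principal components. Calls are counted among protein coding genes, but lists keep their immunoglobulin genes. CPM use the TMM factors of the 10 libraries, or of all 20 for means of the fish-based diets, and the SE is the absolute log2 fold change over the root of F. All 20 pairs of libraries within a group differed beyond counting noise (chi-square per gene 31.9 to 414). Where no source says how mice were caged, p-values measure the spread between these mice.

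Genes were named by a rule. It took the 15 largest rises and the 15 largest falls among called coding genes that did not overlap and averaged 1 CPM or more, up to 4 called members and the first 2 genes of each list, and all called genes of cholesterol synthesis, clock, bile acid synthesis and T cell lists. Npas2, Cyp2c29, Ces2a, Cyp2a5 and Ighm were added after their values were seen. Positions are from GENCODE (GRCm38), in which 55227 of 55487 gene IDs were found, and near-identical transcripts from blastn. Such copies were also found for Ciart, Nr1d2, Gstm1, Gstm3 and Socs2, among others, so some of their reads could be misassigned. Alternatives were DESeq2 1.42, its size factors, upper quartile factors, a filter of 1 count, all 20 libraries, groups as labelled, GC and length offsets, and each library left out. Leaving out mice 31 and 35 together was chosen after seeing the data. The edgeR test of beef against chow was checked on 1 set of simulated counts. It called 14 of 49 genes changed 1.5-fold, 30 of 46 changed 2-fold and 45 of 47 changed 4-fold, and 3 of its 139 calls were false. A gene that was not called can therefore still have changed.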

Additional observations from a re-analysis of the deposited data

Results flagged for a closer look

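In 29 of 324 groups of 5 mice tested, 1 library lay far from the other 4 of its group by Dixon's test, which chance does in about 1 in 20 groups. In beef mouse 35, ribosomal RNA took 12.7% of counts (others 3.27% to 4.38%) and coding genes 84.3% (93.2% to 94.2%). The same mouse read 7.95 CPM for Slc39a5, 336 for Cyp1a2, 60.2 for Irs1, 41.5 for Hba-a1 and, below the others, 350.0 for Ugt1a1. Beef mouse 32 was high for Tuba8 (0.697 CPM), Sult1e1 (10.9), Cyp7a1 (167) and the proliferation genes Mki67 (6.95, others 1.81 to 2.68) and Top2a (3.43, others 0.778 to 1.34). Beef mouse 40 was high for Kcnk10 (5.28) and Ciart (9.22) and low for Cd3e (0.380), and beef mouse 31 was low for Selenbp2 (9.32).

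Among chow mice, mouse 5 was high for Cyp26a1 (47.3 CPM), Sult3a1 (446), Tef (46.6), Fetub (446) and the immediate early gene Fosb (4.87, others 0.0852 to 0.281). Chow mouse 1 was high for Clock (83.0), Cps1 (5007) and Cyp2d9 (21.3) and low for Abcc4 (5.97, others 7.47 to 7.88). Chow mouse 10 was high for Saa1 (58.9), Saa2 (34.6) and Prss2 (0.0176, others 0), and chow mouse 7 for S100a8 (0.831).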

How the results depend on the processing

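No gene named here that was called changed direction under any alternative run. Against 397 called genes (194 higher, 203 lower), DESeq2 called 938 (477 higher, 461 lower), a fit on all 20 libraries 676 (340 and 336), offsets for GC content and length 951 (447 and 504), and the fit without beef mice 31 and 35, chosen after seeing the data, 239 (117 and 122). Leaving out 1 library gave 159 to 363 calls (65 to 185 higher, 94 to 180 lower), with the count moved by more than 1.5 times without chow mouse 2 (159), chow mouse 7 (173), beef mouse 39 (189) or beef mouse 40 (195). DESeq2's size factors, upper quartile factors and a filter of 1 count gave 397, 391 and 403 calls, and moved the median of all genes by at most 0.0140 on the log2 scale. Groups as labelled, which takes mouse 31 out of the beef group, gave 341. Of 93 named genes that were called, 93 passed by DESeq2, 85 in the fit on all 20 libraries, 92 with GC and length offsets, 63 without mice 31 and 35, 41 without chow mouse 2 and 48 without chow mouse 7. List medians moved by more than the spread between mice in 24 of 720 cases. Beef against the mean of the fish-based HFDs gave 0 calls under every alternative run. No paired analysis was possible because the groups share no mouse numbers. The cause of these differences was not tested. Genes under about 1 CPM rest on few reads, as for Sult1e1 on chow.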

Other observations

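Among 2961 tested genes that do not code for protein, 102 were called, 56 higher and 46 lower on beef. Gm15375, a pseudogene on chromosome 1, read 2.79, 3.07, 5.07, 2.19 and 2.99 CPM in chow mice and 0.380, 0.197, 0.304, 0.116 and 0.540 CPM in beef mice, without overlap (log2 fold change -3.37 ± 0.35, adjusted p = 0.000446). Gm16551 fell by 2.16 (SE 0.18, adjusted p = 0.000134) and Gm34333, a lincRNA, was higher by 1.73 (SE 0.24, adjusted p = 0.00412). These 3 passed with any 1 library left out. Meg3, an imprinted lincRNA expressed from the maternal copy, read 3.62, 3.93, 9.07, 2.88 and 1.95 CPM on chow and 0.760, 0.983, 0.847, 0.949 and 1.72 CPM on beef. It did not overlap between the groups (-2.03 ± 0.39, adjusted p = 0.0190), and passed in 9 of 10 fits (0.0509 without beef mouse 39). Igha, the constant part of IgA heavy chains, fell by 2.25 (SE 0.51, adjusted p = 0.0353) and passed in 5 of 10 fits (0.0864 without chow mouse 7). These genes were chosen after their values were seen.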
